A study of Mus musculus with 12 samples.

Results

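The apelin pathway and endothelial tip cell genes are 8 named genes, Apln, Aplnr, Pgf, Angpt2, Dll4, Unc5b, Esm1 and Plvap, read by symbol out of the 57186 genes of the deposited count table. They were chosen by their role in growing vessels and by their values in an earlier description of this same comparison, so their differences between the groups are a description. The number of them past the threshold of the fit over all genes is given beside its background and supports nothing. The series holds 12 mouse tumours of 4T1, an established murine mammary carcinoma cell line that stands for triple-negative breast cancer. The injected cells were parental in 6 tumours (WT), and in 6 tumours Cosmc (C1galt1c1) had been silenced in them by CRISPR/Cas9, which leaves O-linked glycans truncated as the Tn antigen (Tn). Whole tumour tissue was sequenced, so the counts sum injected cells and cells of the mouse. Fewer vessel cells, less RNA per vessel cell and less RNA of the same gene from injected or other cells cannot be told apart. The tumours were picked across sizes, and the size of each, the strain and age of the mice and whether the silenced line is a clone are not given in the sources used here.

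Apelin is a small secreted peptide made by endothelial tip cells, the cells that lead a growing sprout, and by other cells under low oxygen. Its receptor, encoded by Aplnr, is a G protein-coupled receptor found on venous and sprouting endothelium. Tip cells also carry the Notch ligand Dll4, by which they hold their neighbours in the trailing stalk state, and secrete Angpt2 and Esm1 under VEGF signalling.

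Depth and labels were checked first. Between 113575859 and 156880766 counts were summed per tumour. C1galt1c1, the targeted gene, held 19.6 ± 3.05 CPM (counts scaled to library size) in WT tumours against 11.3 ± 0.77 CPM in the Tn group (mean ± SD, n = 6 each), and every Tn tumour lay below every WT tumour. All 22 endothelial identity genes passed the filter on low counts, and their summed level ran from 627 to 977 CPM in the WT group and from 515 to 820 CPM in the Tn group, lowest among WT in tumour 1. Pecam1, a junction protein of endothelial cells used here as the vessel reference, held 134 ± 24.9 CPM in WT tumours against 111 ± 32.3 CPM in Tn tumours and did not pass (log2 fold change -0.28 ± 0.19 SE, edgeR adjusted p = 0.276). Cdh5, the endothelial cadherin, fell from 140 ± 22.8 to 83.6 ± 21.6 CPM, with a log2 fold change of -0.74 ± 0.17 (edgeR adjusted p = 0.00431).

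All 8 genes passed the filter on low counts. Of these, 3 were lower in Tn tumours past the edgeR threshold of 0.05 on the adjusted p (Apln, Aplnr and Unc5b), 0 were higher and 5 did not pass. Of all 19255 genes tested, 17.4% were lower, 19.5% were higher and 36.8% passed in either direction, and since the same contrast was used in choosing the 8 genes, nothing is read from their count. Every Tn tumour lay below every WT tumour for Apln and Aplnr, against 8.35% of all genes, and above it for none of the 8, against 8.81%. The median log2 fold change of the 8 was -0.49, and that of all genes was 0.015.

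**Figure D1:**
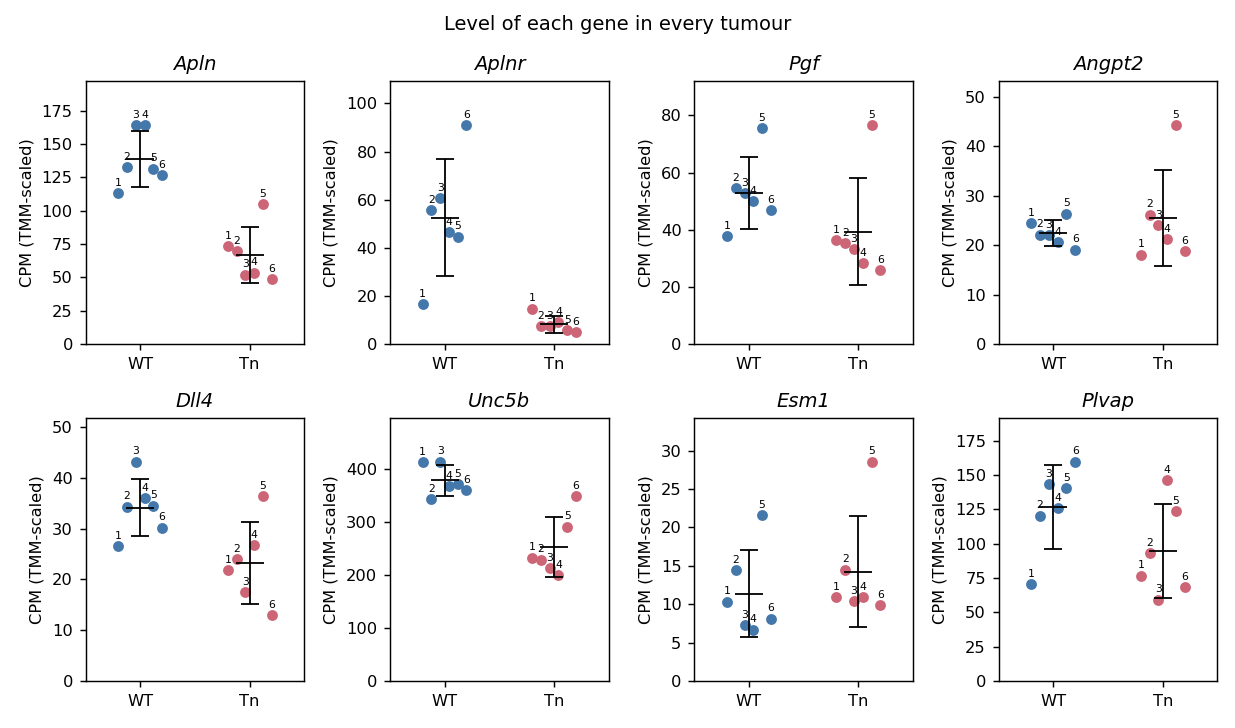
Level (TMM-scaled CPM, axes from 0) of each of the 8 genes in the 6 WT and 6 Tn tumours; points are tumours with their replicate number, and bars are mean ± SD. Apln and Aplnr are the genes whose groups do not overlap, and Tn tumour 5 is the highest Tn tumour for 5 of the 8 genes.

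Apln, the ligand (ENSMUSG00000037010, GRCm39 chromosome X, 47114019 to 47123775, minus strand), held between 113 and 164 CPM in WT tumours, with a median of 132. In Tn tumours it held between 48.7 and 105 CPM, with a median of 61.6. The groups did not overlap, and the tumours nearest to each other were WT tumour 1 and Tn tumour 5. The Tn mean was 48.3% of the WT mean, a log2 fold change of -1.05 ± 0.18 (SE).

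Aplnr, the receptor (ENSMUSG00000044338, chromosome 2, 84966569 to 84970267, plus strand), had the largest difference of the 8 genes. It held 16.5, 55.6, 60.8, 46.7, 44.7 and 91.1 CPM in WT tumours 1 to 6. In Tn tumours 1 to 6 it held 14.8, 7.52, 7.46, 9.17, 5.98 and 5.02 CPM. WT tumour 1 was low within its group and lay just above Tn tumour 1, the highest of the Tn group. WT tumour 1 also held the lowest WT sums of the endothelial, mural, fibroblast, other tip cell, angiopoietin, guidance, caveolae, lymphatic and adipocyte lists. Its adipocyte sum was 3.50 CPM against 96.5 to 1575 CPM in the other WT tumours. WT tumour 6, the highest for Aplnr, held the highest WT adipocyte sum. Whether any of these had a part in the Aplnr values was not tested. The Aplnr means were 52.6 ± 24.3 and 8.32 ± 3.46 CPM, which leaves 15.8% of the WT level, a log2 fold change of -2.66 ± 0.37.

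The starts of both genes are shown because ligand and receptor both had lower means in Tn tumours. A shared cause was not tested. Each is the 250 bases before the start of the canonical transcript, read on the strand of the gene from the GRCm39 genome with the GENCODE M39 annotation. The windows are chrX:47123776-47124025 (minus strand) for Apln and chr2:84966319-84966568 (plus strand) for Aplnr. Capitals mark matches, on either strand, to the words AGGAAG or CGGAAG. These words hold the shorter core of ETS factors, a family that directs endothelial transcription.
Apln: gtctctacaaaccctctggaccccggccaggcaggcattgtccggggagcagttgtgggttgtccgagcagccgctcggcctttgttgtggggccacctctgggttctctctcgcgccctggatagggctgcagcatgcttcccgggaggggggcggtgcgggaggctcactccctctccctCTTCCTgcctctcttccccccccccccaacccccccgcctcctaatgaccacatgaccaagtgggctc
Aplnr: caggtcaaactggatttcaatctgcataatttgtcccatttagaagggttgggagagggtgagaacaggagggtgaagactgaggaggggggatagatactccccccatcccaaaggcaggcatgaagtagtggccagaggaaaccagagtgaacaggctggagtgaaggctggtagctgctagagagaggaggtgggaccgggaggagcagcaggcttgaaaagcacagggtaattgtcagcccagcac
The Apln window holds 1 match to these ETS words and the Aplnr window holds none, and the shorter core alone was not searched. The core bound by hypoxia-inducible factors (ACGTG or GCGTG) was searched in the same way, on both strands, and it lies in neither of these windows but in those of Pgf, Dll4, Unc5b and Plvap. The core of RBPJ, the DNA-binding partner of Notch (TGGGAA), lies in neither as well. Among 21757 promoters of the same length, 39.3% hold one of the ETS words, 22.7% an RBPJ core and 41.3% a hypoxia core, against 3, 1 and 4 of the 8 genes. No match overlapped one of another core, and a match is a stretch of letters, not a shown binding site.

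Other genes that act on the apelin ligand or below its receptor were read from a list of such genes. Apela, the second ligand of the receptor, was below the filter on low counts. Of the 5 tested, 1 rose, 1 fell and 3 did not pass, with a median log2 fold change of -0.12. Furin, a protease that cuts the apelin precursor, fell from 368 ± 30.8 to 242 ± 33.8 CPM (log2 fold change -0.60 ± 0.094, edgeR adjusted p = 0.000559). Arrb2, an arrestin that binds activated receptors, rose from 46.4 ± 8.25 to 82.0 ± 21.9 CPM (0.82 ± 0.18, adjusted p = 0.00355). Mme, a peptidase that degrades apelin, held 4.93 ± 5.67 and 1.76 ± 2.19 CPM with a log2 fold change of -1.48 ± 0.84 (adjusted p = 0.186). That value was -2.45 without Tn tumour 4 (adjusted p = 0.0276) and -0.61 without WT tumour 6 (adjusted p = 0.553).

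Pgf, placental growth factor, is a ligand of the VEGF receptor Flt1 (ENSMUSG00000004791, chromosome 12, 85213409 to 85224564, minus strand). It held between 37.7 and 75.5 CPM in WT tumours (median 51.4) and between 26.0 and 76.7 CPM in Tn tumours (median 34.4). The other 5 Tn tumours lay below every WT tumour, while Tn tumour 5 lay above all of them. The log2 fold change was -0.43 ± 0.25 over all tumours and -0.73 without Tn tumour 5. Tn tumour 5 also held the highest summed level of hypoxia-induced genes, 4862 CPM against 2849 to 3889 CPM in the other Tn tumours. It held the highest Tn sums of the endothelial identity, other tip cell, vessel Notch, mural, fibroblast and skeletal muscle lists as well. Whether any of these had a part in its Pgf level was not tested.

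Among 9 VEGF ligands and receptors, 2 rose and 4 fell, with a median log2 fold change of -0.044. Vegfc and Vegfb rose by 1.15 ± 0.20 and 0.70 ± 0.13 on the log2 scale (edgeR adjusted p = 0.000886 and 0.00167). Vegfa, the principal growth factor of sprouting vessels, fell from 154 ± 24.4 to 99.0 ± 18.9 CPM (-0.63 ± 0.13, adjusted p = 0.00304). Kdr, its main signalling receptor, fell from 53.8 ± 11.97 to 24.4 ± 6.30 CPM (-1.14 ± 0.19, adjusted p = 0.00085). Flt1, the receptor of Pgf, held 105 ± 10.7 and 102 ± 22.3 CPM and did not pass (-0.044 ± 0.13, adjusted p = 0.814).

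Angpt2, a ligand of the endothelial receptor Tek that loosens vessels (ENSMUSG00000031465, chromosome 8, 18739202 to 18791603, minus strand), held between 19.1 and 26.3 CPM in WT tumours (median 22.1). Tn tumours held between 18.1 and 44.3 CPM (median 22.6). The ranges overlapped, with 2 Tn tumours below the WT range and Tn tumour 5 above it. The log2 fold change was 0.18 ± 0.20, and it was -0.046 without Tn tumour 5.

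Of the 6 other angiopoietin and Tie genes, 1 rose and 4 fell, with a median log2 fold change of -0.71. Angpt1, the ligand that activates Tek and steadies vessels, rose from 5.61 ± 1.89 to 81.9 ± 62.5 CPM (log2 fold change 3.87 ± 0.46, edgeR adjusted p = 0.000116), with every Tn tumour above every WT tumour. Tek, Angpt4, another Tek ligand, and Ptprb, a phosphatase that restrains Tek, fell, with log2 fold changes of -1.34 ± 0.26, -1.98 ± 0.24 and -0.85 ± 0.13 (adjusted p = 0.0018, 0.000106 and 0.000611). The pericyte and smooth muscle markers, which mark cells that wrap vessels, ran from 462 to 846 CPM in sum in the WT group and from 167 to 441 CPM in the Tn group, and 9 of 11 fell with 0 rising; their part in the vessel gene values was not tested.

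**Figure D2:**
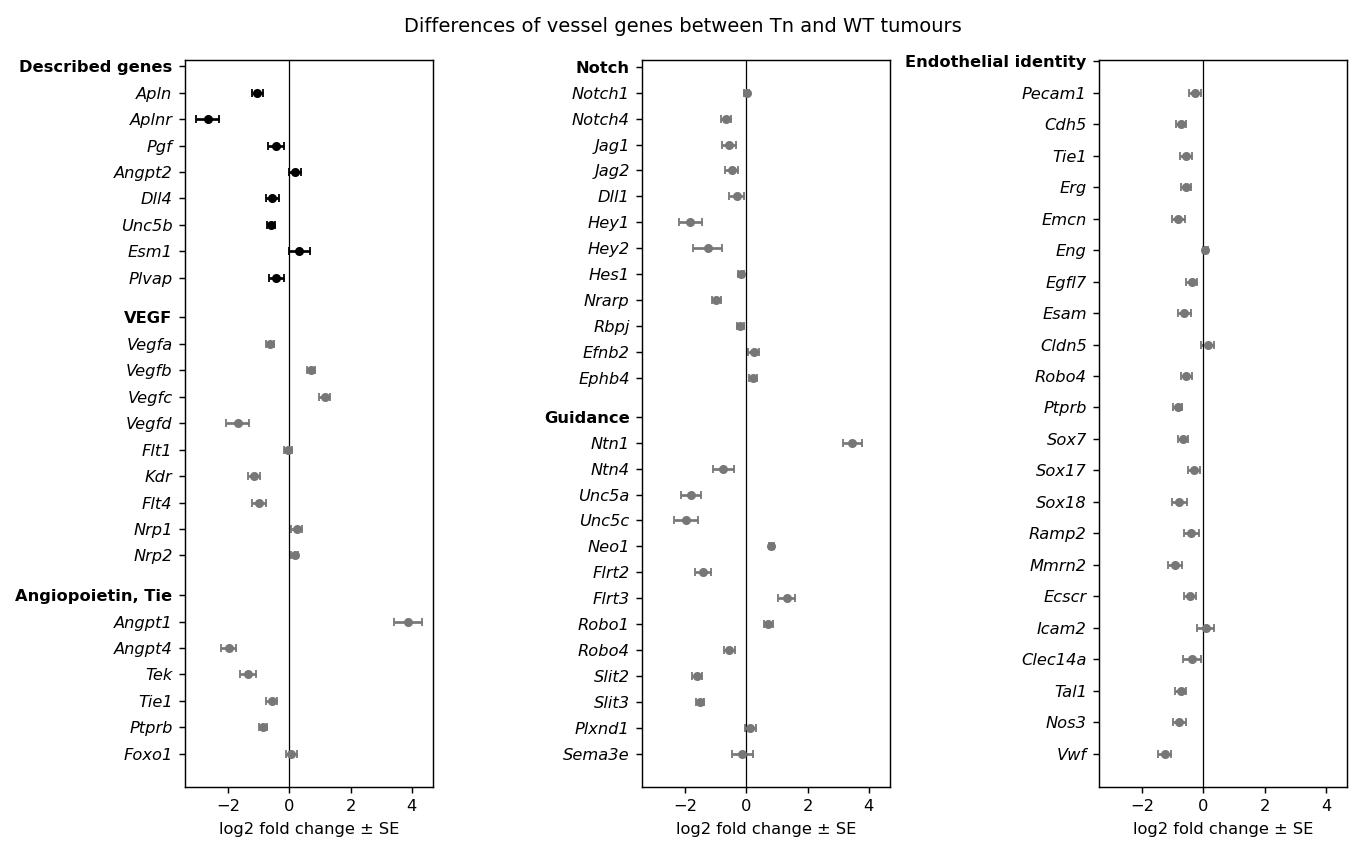
Log2 fold change, Tn over WT, with its standard error (bars) for the 8 genes (black) and for all tested genes of the VEGF, angiopoietin, Notch, guidance and endothelial identity lists (grey), with a line at 0. Angpt1 (3.87) and Ntn1 (3.45) lie farthest to the right, and Aplnr (-2.66) lies farthest to the left.

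Dll4, the Notch ligand of tip cells (ENSMUSG00000027314, chromosome 2, 119156170 to 119166443, plus strand), held between 26.6 and 43.2 CPM in WT tumours (median 34.4) and between 12.9 and 36.4 CPM in Tn tumours (median 22.9). In 4 of 6 Tn tumours it lay below every WT tumour, with Tn tumour 5 again the highest of its group. The log2 fold change was -0.56 ± 0.21, and it ran from -0.73 (without Tn tumour 5) to -0.43 (without Tn tumour 6) with each tumour left out in turn. Dll4 did not pass in the main fit but passed in 5 of 8 other settings and in 1 of 12 fits without 1 tumour. Those are refits of the contrast it was chosen on, so nothing is read from them. Of its 3852 exon bases, 214 (5.56%) are shared with Gm14207 on the opposite strand, and the counting did not use the strand.

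Of 12 other Notch genes of vessels, 3 fell and 0 rose, with a median log2 fold change of -0.40. They were Hey1 and Nrarp, which Notch signalling switches on, and the endothelial receptor Notch4. Hey1 fell from 7.12 ± 3.20 to 2.00 ± 0.85 CPM (-1.83 ± 0.38, edgeR adjusted p = 0.00291) and Nrarp from 13.1 ± 1.96 to 6.65 ± 1.23 CPM (-0.98 ± 0.14, adjusted p = 0.000324). Notch4 fell by 0.66 ± 0.16 on the log2 scale (adjusted p = 0.00581). Without WT tumour 1, Tn tumour 4 or Tn tumour 5 in turn, 5 of the 12 fell. Notch1 held 62.2 ± 5.55 and 62.4 ± 7.03 CPM (adjusted p = 0.965).

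Unc5b, a receptor for netrins that turns vessel sprouts (ENSMUSG00000020099, chromosome 10, 60598372 to 60667396, minus strand), held between 343 and 413 CPM in WT tumours (median 369). In Tn tumours it held between 199 and 348 CPM (median 230). Apart from Tn tumour 6, the Tn group lay below all WT tumours. The Tn mean was 66.6% of the WT mean, a log2 fold change of -0.59 ± 0.13.

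Of 13 netrin, UNC5 and guidance genes tested, 4 rose and 6 fell, with a median log2 fold change of -0.56; Dcc, a netrin receptor of neurons, was below the filter. Ntn1, the netrin that Unc5b binds, rose from 11.2 ± 3.87 to 123 ± 48.1 CPM (3.45 ± 0.31, edgeR adjusted p = 2.3e-05), and every Tn tumour lay above every WT tumour. Neo1, another netrin receptor, rose from 94.3 ± 6.43 to 166 ± 22.1 CPM (0.82 ± 0.089, adjusted p = 6.6e-05). Slit2 and Slit3, ligands of the Robo receptors, fell, with log2 fold changes of -1.60 ± 0.16 and -1.51 ± 0.12 (adjusted p = 4.29e-05 and 7.48e-06).

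Esm1, or endocan, is a secreted proteoglycan made by tip cells (ENSMUSG00000042379, chromosome 13, 113346021 to 113354632, plus strand). It held between 6.68 and 21.6 CPM in WT tumours (median 9.22) and between 9.89 and 28.6 CPM in Tn tumours (median 10.9). No Tn tumour lay below every WT tumour, and Tn tumour 5 lay above all of them. The log2 fold change was 0.32 ± 0.34, and it was -0.003 without Tn tumour 5 and 0.60 without WT tumour 5, the highest tumour of each group.

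Plvap, the protein of the diaphragms that span fenestrae and caveolae (ENSMUSG00000034845, chromosome 8, 71948674 to 71964506, minus strand), held between 70.7 and 160 CPM in WT tumours (median 133). In Tn tumours it held between 59.2 and 146 CPM (median 85.0). The ranges overlapped over most of their length, with 2 Tn tumours below the WT range. The log2 fold change was -0.42 ± 0.24. It was -0.58 without Tn tumour 4, the highest Tn tumour, and -0.32 without Tn tumour 3, the lowest.

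The 18 other tip cell genes give the setting of these values. Of them, 10 fell and 0 rose, with a median log2 fold change of -0.70, and of the 22 endothelial identity genes 13 fell and 0 rose, with a median of -0.57. Adm, a vessel peptide hormone, held 11.5 ± 3.89 and 19.4 ± 8.30 CPM (0.76 ± 0.29, adjusted p = 0.0613), and it passed as 1 tip cell gene that rose without WT tumour 2 (0.87), without Tn tumour 1 (0.90), by DESeq2 and with the replicate block. Without Tn tumours 4 and 6 and WT tumour 6, which stand apart for B cell, keratinocyte or adipocyte genes, 5 of the 22 fell. Kcne3, a potassium channel subunit, fell from 10.7 ± 2.22 to 2.75 ± 1.36 CPM (-1.96 ± 0.28, edgeR adjusted p = 0.000307), and Nid1, a basement membrane protein, from 235 ± 39.4 to 91.3 ± 24.2 CPM (-1.37 ± 0.18, adjusted p = 0.000178). Col4a1 and Col4a2, the collagens of the basement membrane, fell, with log2 fold changes of -0.97 ± 0.14 and -1.03 ± 0.15 (adjusted p = 0.0003 and 0.000338). Fibroblasts and mural cells also make basement membrane, and the 9 fibroblast markers summed to 7909 to 20370 CPM in the WT and 3289 to 4700 CPM in the Tn group; their part in these values was not tested.

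Levels of different genes were compared per kilobase of exon. In WT tumours the order of mean CPM per kilobase was Plvap (63.8), Unc5b (60.4), Apln (44.0), Pgf (18.2), Aplnr (14.2), Dll4 (8.86), Angpt2 (6.08) and Esm1 (5.43). Only the neighbours Unc5b and Apln, and Apln and Pgf, had ranges that did not overlap. In Tn tumours the order was Plvap (47.6), Unc5b (40.2), Apln (21.3), Pgf (13.6), Angpt2 (6.89), Esm1 (6.78), Dll4 (6.03) and Aplnr (2.25), and the ranges of all neighbours overlapped. Aplnr stood between Pgf and Dll4 in WT and last in Tn tumours, where Dll4 was higher in 6 of 6.

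To set the genes against the amount of vessel RNA, each was divided by Pecam1 in the same tumour. A ratio is a level per vessel only where vessel cells make the RNA of the gene and that of Pecam1, which was not tested. Tn tumour 4 held the most Pecam1 of the Tn group, 155 CPM, and the lowest ratio of Cdh5 to Pecam1, 0.54. It also held the highest T cell and B cell marker sums, 377 and 579 CPM. The part of blood-derived cells in the Pecam1 values was not tested. The ratio of Apln was 1.06 ± 0.20 in WT and 0.63 ± 0.15 in Tn tumours, and that of Aplnr was 0.38 ± 0.13 and 0.079 ± 0.037. For both, every Tn tumour lay below every WT tumour, with mean log2 differences of -0.78 and -2.28; the same held for the ratio of 3.17% of the other 19254 genes, and nothing is read from it since the members were chosen with these values known. With Cdh5 as the divisor these were -0.33 and -1.82, and both genes then overlapped between the groups; with the geometric mean of the 22 endothelial genes they were -0.53 and -2.03, and only Aplnr did not overlap, where 2.29% of all genes had every Tn tumour lower. Cdh5 itself, divided by Pecam1, was 1.05 ± 0.073 in WT and 0.78 ± 0.14 in Tn tumours, with no overlap, so that the divisor moves each difference.

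The ratios of the other 6 genes overlapped between the groups. Those of Angpt2 and Esm1 were higher in Tn tumours on average, by 0.43 and 0.64 on the log2 scale against Pecam1 and by 0.88 and 1.10 against Cdh5. The mean log2 differences of Pgf, Dll4, Unc5b and Plvap were -0.19, -0.31, -0.30 and -0.15 against Pecam1, and 0.27, 0.15, 0.15 and 0.31 against Cdh5. The direction of these 4 thus depends on the divisor. Against Pecam1, the difference of Pgf was -0.0095 without Tn tumour 4, -0.10 without WT tumour 5 and -0.33 without Tn tumour 5. That of Unc5b was -0.13 without Tn tumour 4, -0.17 without WT tumour 1 and -0.50 without Tn tumour 6.

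**Figure D3:**
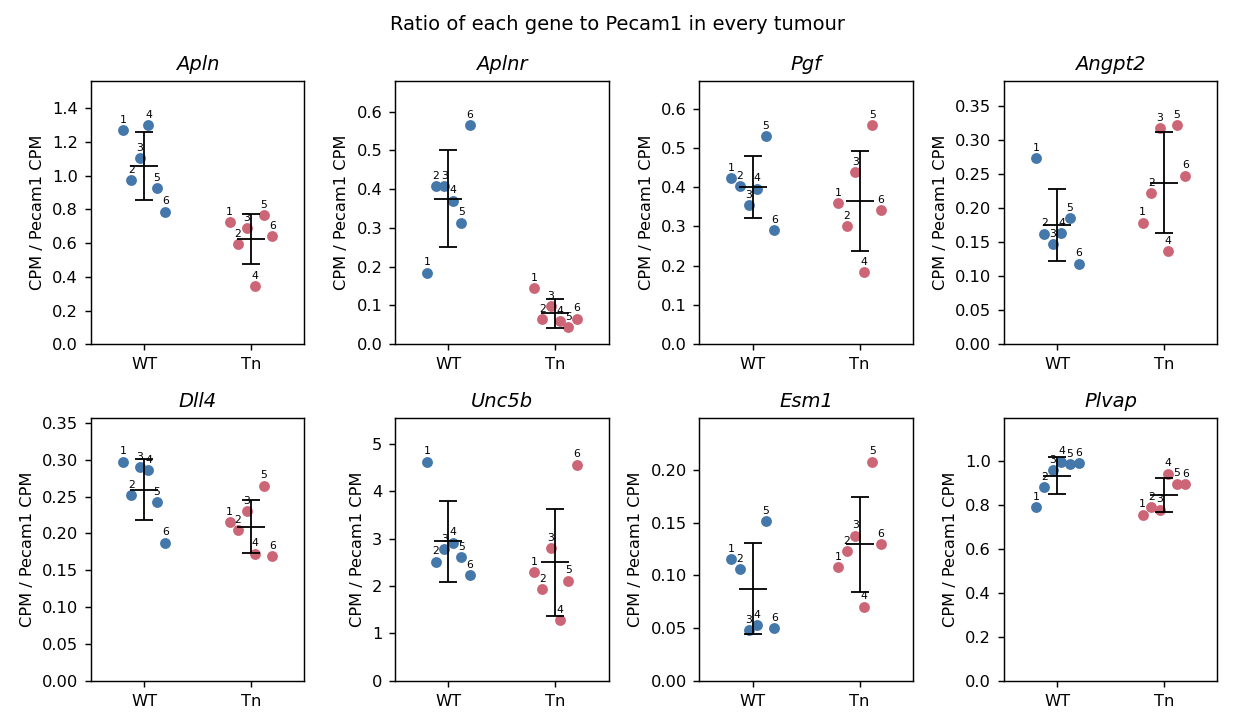
Ratio of the CPM of each of the 8 genes to that of Pecam1 (no unit, axes from 0); points are tumours with their replicate number, and bars are mean ± SD of 6 tumours. Apln and Aplnr are separated between the groups and the other 6 overlap.

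**Figure D4:**
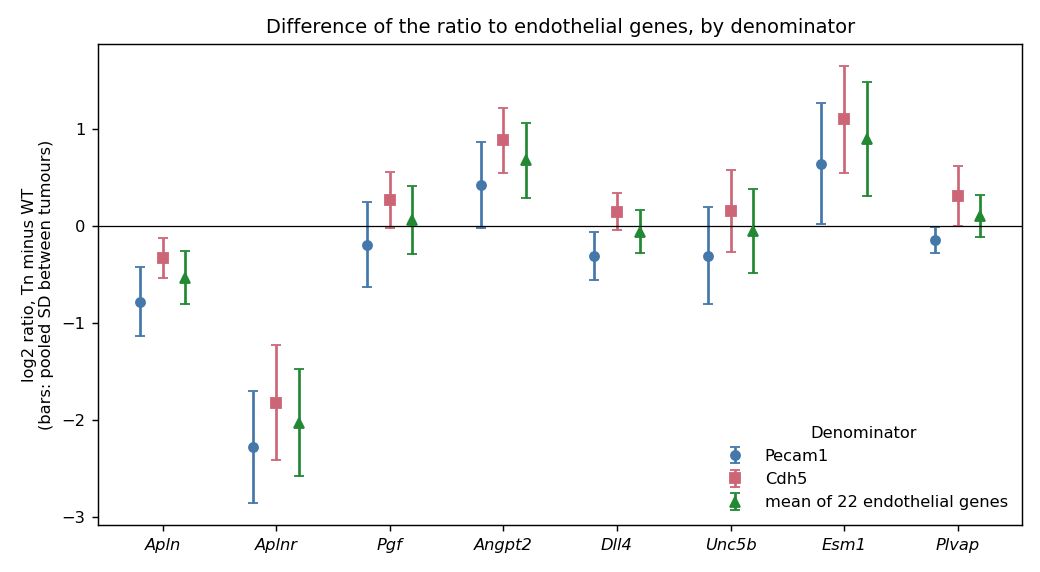
Mean log2 difference, Tn minus WT, of the ratio of each gene to Pecam1 (circles), to Cdh5 (squares) and to the geometric mean of 22 endothelial genes (triangles); bars are the pooled SD between tumours. Aplnr and Apln stay below 0, Angpt2 and Esm1 stay above 0, and Pgf, Dll4, Unc5b and Plvap change sign.

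How far each gene followed the endothelial level within a group was measured over 6 tumours, as the correlation of log2 CPM with the mean log2 CPM of the 22 endothelial genes. This made 16 relations, each with an exact two-sided permutation test over 720 pairings and adjusted by Benjamini-Hochberg. Aplnr in WT tumours had Pearson r = 0.96 (exact p = 0.00417, adjusted 0.0333) and Spearman rho = 0.94 (exact p = 0.0167, adjusted 0.133). In Tn tumours Aplnr had r = 0.26 (exact permutation adjusted p = 0.687), and the difference between the groups was not tested. Without the 2 WT tumours farthest from the median level, r was 0.89 over 4 tumours. With RLE scaling the relation of Aplnr in WT tumours missed the threshold (exact permutation adjusted p = 0.0556).

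Dll4 in Tn tumours had r = 0.97 (exact p = 0.00278, adjusted 0.0333) and rho = 0.94 (exact p = 0.0167, adjusted 0.133), and r = 0.96 without the 2 farthest tumours. In WT tumours its r was 0.66 (exact permutation adjusted p = 0.368). Plvap had r = 0.96 in WT and 0.88 in Tn tumours (exact permutation adjusted p = 0.0889 and 0.117). With Pecam1 alone as the endothelial level, Dll4 in Tn tumours missed the threshold (r = 0.88, exact permutation adjusted p = 0.0722), and Plvap passed in both groups (r = 0.98 and 0.97, adjusted p = 0.0333 each). None of the 16 relations passed by Spearman's rho after adjustment. Apln had r = 0.50 and 0.74, Pgf 0.62 and 0.67, Angpt2 -0.40 and 0.60, Unc5b -0.50 and -0.27 and Esm1 0.015 and 0.71 in WT and Tn tumours, and none of these passed.

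**Figure D5:**
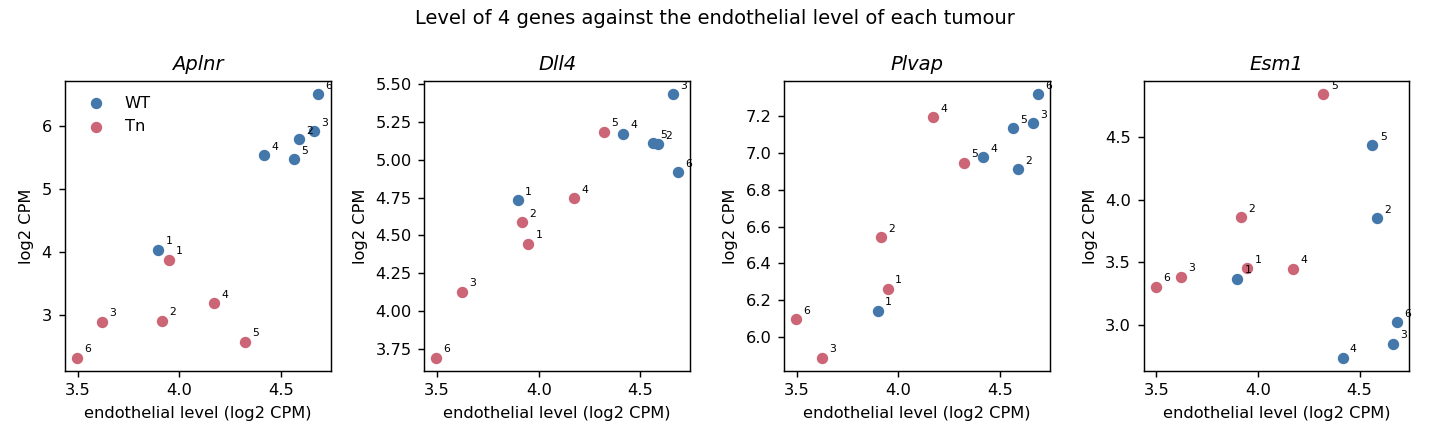
Log2 CPM of Aplnr, Dll4, Plvap and Esm1 against the mean log2 CPM of 22 endothelial genes; points are tumours with their replicate number, WT in blue and Tn in red. Aplnr in WT tumours (r = 0.96) and Dll4 in Tn tumours (r = 0.97) passed after adjustment by Pearson r but not by Spearman's rho. Plvap had r = 0.96 in WT and 0.88 in Tn tumours and did not pass.

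The genes closest in pattern were ranked by Pearson r of log2 CPM, centred within each group, over 12 tumours and 13983 genes with a mean of at least 1 CPM; r is a description over tumours that share library depth and cell makeup. Plvap was closest to Pecam1 (0.97), Slc46a3 (0.97) and Pdlim1 (0.96), the first a marker of the same cells. Aplnr was closest to Bik (0.96), Sox10 (0.92) and Dhrs4 (0.92), and Apln to Bcl6b (0.94), Carhsp1 (0.92) and Adamts4 (0.89). Esm1 was closest to Slco4a1 (0.90), Hilpda (0.89) and Vegfa (0.85), the last the growth factor known to induce it. Dll4 was closest to Tnfrsf23 (0.95), Kcnq1 (0.94) and Pcdh1 (0.93), and Unc5b to Rab34 (0.95), Mapk7 (0.93) and Aig1 (0.92). Angpt2 was closest to B4galt1 (0.91), Igfbp3 (0.86) and Klhl30 (0.86), and Pgf to Gpihbp1 (0.87), Dnajb9 (0.86) and Mettl21a (0.86).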

How the data were processed

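Per the labels, poly(A) RNA of tumours with an RNA integrity number above 7 was made into stranded libraries in 1 batch. Per the submitters' processing notes, the reads went through FastQC, fastp 0.23, STAR 2.7.11a on GRCm39 and featureCounts (Subread 2.1.1). The authors' table holds raw counts per gene of the Ensembl 112 annotation which, per the file headers, were counted over exons without strand, with both ends required and with no option to count a pair once, so most pairs add 2 counts. The deposited gene lengths, in bases, were used for CPM per kilobase. Depth limits a value less than the spread between tumours does, with a biological coefficient of variation of 0.358.

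The groups were compared over all 12 tumours by edgeR 4.0.16 (R 4.3.3) on the deposited counts, with TMM scaling, filterByExpr and a robust quasi-likelihood test, adjusted by Benjamini-Hochberg over 19255 genes at 0.05. CPM are TMM-scaled, and log2 fold changes are Tn over WT. Ratios to Pecam1 have no test. The log2 CPM for correlations used a prior count of 2. The labels call the tumours biological replicates, so the p-values set the group difference against the spread between tumours within a group. They cannot tell the silencing of Cosmc apart from other differences between the injected lines. The fit was also run on simulated counts with planted differences. Each gene was drawn independently with the dispersion of this same fit, so that run is no support for the results.

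The 8 genes and the 19 lists were chosen with earlier results of these data known. Named genes are the 8, C1galt1c1, Pecam1 and Cdh5, up to 4 per list by smallest p, and 3 per gene by likeness. Flt1, Notch1 and Prox1 were named after their values were seen. The symbols Ca9 and Lor were not found, Krt1 was below the filter, and 1 gene of the apelin list and 1 promoter are not reported here. All Tn tumours have lower library numbers than all WT tumours, and an effect of this order cannot be told apart from the group. Other settings tried were DESeq2 1.42.0, voom of limma 3.58.1, scaling by RLE or upper quartile, 2 other filters, the replicate block, each tumour left out, 3 tumours left out, other divisors, and another endothelial level or prior count.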

Additional observations from a re-analysis of the deposited data

Results flagged for a closer look

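In 32 groups of 6 tumours (the 8 genes in both groups, as CPM and as ratio to Pecam1), 4 single values stood apart by Dixon's criterion, which chance meets in about 1 of 20 groups. Tn tumour 5 stood above the other Tn tumours for Pgf at 76.7 CPM, for Angpt2 at 44.3 CPM and for Esm1 at 28.6 CPM. The ratio of Unc5b to Pecam1 stood apart in WT tumour 1, at 4.62, where Pecam1 was the lowest of the WT group at 89.3 CPM.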

How the results depend on the processing

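Over 8 other settings and the 12 fits without 1 tumour, the log2 fold changes ran from -1.22 to -0.90 for Apln, -2.90 to -2.31 for Aplnr, -0.70 to -0.52 for Unc5b, -0.73 to -0.43 for Dll4, -0.73 to -0.24 for Pgf, -0.58 to -0.32 for Plvap, -0.046 to 0.30 for Angpt2 and -0.003 to 0.60 for Esm1. These are refits of the contrast the 8 genes were chosen on and are no support for them. The count lower past the threshold ran from 3 to 5, with 5 without Tn tumour 5, with the replicate block and by voom. Of all genes, 3168 of 19625 fell without Tn tumour 5, 2878 of 19255 with the block and 3738 of 19255 by voom. With the replicate number as a block, 2998 genes rose and 2878 fell. Over the genes tested, the correlations of same-numbered tumours ran from -0.125 to 0.158, and 0 of 6 WT tumours correlated best with their own number. For Pgf, Angpt2 and Esm1, 3 of the 8 genes, number 5 was the highest tumour of both groups. Whether the numbers mark a shared factor was not tested. Against Cdh5, the mean log2 difference moved to -0.33 for Apln, 0.27 for Pgf, 0.88 for Angpt2, 0.15 for Dll4 and 0.31 for Plvap. Against the 22 endothelial genes it was -0.059 for Dll4, 0.10 for Plvap, 0.059 for Pgf and -0.054 for Unc5b. By RLE scaling, 1 in place of 2 correlations passed. The r of Esm1 in WT tumours turned to -0.011 with Pecam1 as the endothelial level. The causes of these moves were not tested. The count of Notch genes that fell ran from 3 to 6 over the settings. Genes at low counts, such as Apela, could not be compared at this depth.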

Other observations

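Among 12 caveolae and venule genes, 3 rose and 2 fell, with a median log2 fold change of -0.014. Vcam1, an adhesion molecule for leukocytes on activated endothelium and other stromal cells, rose from 47.4 ± 26.2 to 310 ± 61.7 CPM (2.71 ± 0.33, edgeR adjusted p = 0.000117), with every Tn tumour above every WT tumour. Icam1, another adhesion molecule, rose from 21.1 ± 4.46 to 39.6 ± 13.4 CPM (0.91 ± 0.22, adjusted p = 0.0076). Markers of T cells, 7 of 7, and of macrophages, 6 of 8, rose as well, and their part in the Vcam1 and Icam1 values was not tested. Cavin1, a coat protein of caveolae, rose by 0.53 ± 0.11 and Cavin3 fell by 0.52 ± 0.11 on the log2 scale (adjusted p = 0.00219 and 0.00332).

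Of 13 hypoxia-induced genes tested, 2 rose and 1 fell, with a median log2 fold change of 0.026. Egln3, an oxygen-sensing hydroxylase, rose from 164 ± 19.6 to 339 ± 110 CPM (1.05 ± 0.19, edgeR adjusted p = 0.00137) and Hk2, a hexokinase, from 111.5 ± 14.05 to 181 ± 33.3 CPM (0.70 ± 0.13, adjusted p = 0.00151), while Vegfa was the one that fell. Of 6 lymphatic endothelial markers, 1 fell, 0 rose and 5 did not pass. Pdpn, which fibroblasts also carry, fell from 37.9 ± 13.1 to 18.3 ± 7.44 CPM (-1.05 ± 0.28, edgeR adjusted p = 0.0112). Prox1, the defining factor of these cells, held 0.58 ± 0.31 and 0.49 ± 0.73 CPM. Ccl21a held 2.01 ± 2.36 and 45.4 ± 109 CPM (4.50 ± 1.93, edgeR adjusted p = 0.0853). Reln and Mmrn1 had log2 fold changes of 0.65 and -0.75. The list summed to 309 CPM in Tn tumour 4 and to 13.5 to 34.3 CPM in the other Tn tumours. Without Tn tumour 4, 2 of the 6 fell, and without Tn tumour 5, 2 of the 13 hypoxia-induced genes fell.

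Markers of other cells moved between the groups as well. Of the fibroblast markers 8 of 9 fell and 1 rose, of the epithelial markers 2 of 7 fell, of the adipocyte markers 1 of 6 fell, of the 4 keratinocyte markers tested 1 rose and of the skeletal muscle markers 0 of 6 passed by edgeR, with 0 at an unadjusted p under 0.05 and 0 by DESeq2. The keratinocyte call was lost in 12 of the other fits, among them those without any single WT tumour and without Tn tumour 6, which held 3488 CPM of the list in sum against 16.7 to 140 CPM in the other Tn tumours. All 3 B cell markers tested rose, but the summed level of the list was 579 CPM in Tn tumour 4 and at most 2.61 CPM in the other tumours.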
